A study of Mus musculus with 21 samples.

Results

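The 56 genes described here encode the proteins that copy DNA in S phase, the enzymes that supply its building blocks, and 4 of the E2F transcription factors that activate or repress these genes. They were chosen by name as known members of these pathways, with earlier results of these data known, and all 56 were found among the 22050 entries of the expression table. By role they comprised 10 genes of origin licensing, 6 of helicase activation, 9 of the DNA polymerases and primase, 6 of the sliding clamp and its loader, 5 that bind or join DNA at the fork, 5 of fork protection and repair, 5 of nucleotide supply, 6 of chromatin copying, and the 4 E2F factors.

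p16 (p16INK4a) inhibits the cyclin D-dependent kinases, and when these are inhibited the retinoblastoma protein RB stays bound to E2F factors and their target genes are repressed. Among those targets are the Mcm genes, whose products form the ring-shaped helicase that is loaded on replication origins before S phase, and the genes for the clamp, the polymerases and the enzymes that make deoxynucleotides. In skin, replication is confined mainly to basal keratinocytes and the growing hair follicle, and in most sorted populations only a fraction of the cells is in S phase. In bulk samples such as these, fewer cells in S phase and less RNA per cell cannot be told apart.

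The study profiled these cells to learn by which mechanisms keratinocytes that express p16 stimulate proliferation in the epidermis. Doxycycline was given for 6 months, from the age of 3 weeks, to K5-rtTA/tet-GFP/tet-p16 mice (p16 group), in which human p16 and GFP were switched on together, and to K5-rtTA/tet-GFP mice (Control group), which expressed GFP alone. All were of a mixed FVB, C57Bl and 129sv background, and the study used males for inductions of this length. The keratin 5 promoter drove the transactivator in both groups, so that the transgenes were switched on in the cell types that use this promoter. GFP+ keratinocytes were sorted from dorsal skin after cells carrying CD140a, CD45 or CD31 had been gated out, and each sample held about 80000 cells pooled from 3 mice. There were 4 samples in each group, obtained in 3 independent experiments, and the labels do not tie a sample to an experiment.

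The values are normalized read counts, that is, reads of a gene scaled by the size factor of its library. The Control samples had 1760953 to 3414362 reads on genes and the p16 samples 2884544 to 3202975, and the shallowest library was Control replicate 4. Normalized values of the human CDKN2A transgene were 0.7, 1.3, 2.5 and 1.5 in the Control libraries and 1.6, 10.1, 16 and 7.4 in the p16 libraries, in the order of their replicate numbers (exact permutation test, p = 0.0571). These values rest on only 1 to 18 reads in a library. By this transgene the library labelled p16 replicate 1 was within the Control range, and it is named by its label throughout. Values of the GFP transgene (EGFP) were 4152, 5798.2, 5458 and 5912.6 in Control and 3624.4, 3978.8, 3161.8 and 3453.3 in p16 libraries, in the same order. Every p16 value of GFP, that of replicate 1 included, lay below every Control value (limma, log2 fold change -0.58, adjusted p = 0.0167). p16 replicate 4 stood apart from the rest of its group: the chi-square of the reads per gene was 6.4 to 8.49 in its pairs and 2.95 to 3.19 in the other p16 pairs. The basal keratinocyte markers Krt5, Krt14, Itga6, Itgb4, Trp63, Col17a1 and Krt15 were abundant in every library, summing to 31881 to 52882 in Control and 32056 to 36675 in p16 samples. Among them Krt15 was called lower in p16 samples (limma, log2 fold change -0.56, adjusted p = 0.0463), while Itga6 (0.21, adjusted p = 0.293) and Itgb4 (0.37, adjusted p = 0.104) were higher at an unadjusted p under 0.05.

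E2F factors act at the promoters of their target genes, so that promoter sequences of a few of the 56 genes are shown before the values. RefSeq (GRCm38.p6) gave 57 promoter windows for 48 of the 56 genes, each reaching from 250 bases before to 50 bases after a transcription start. The E2F letters searched were TTCCCGC and TTGGCGC on both strands, where the other strand reads GCGGGAA and GCGCCAA. They were present in 52.6% of the windows of these genes, against 11.7% of the 12422 windows of all genes tested and 6.81% of all 32851 windows. The letters CCAAT, the box of the factor NF-Y, were present in 59.6% against 37.6%, and TTTGAA, the cell cycle homology region, in 14% against 11.9%, also on both strands. The genes were chosen as known members of these pathways, so a high share of E2F letters follows in part from that choice and is no test. A match in these short windows is a description of the letters and does not show binding.

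The 250 bases before the start are printed 5′ to 3′ on the strand of the gene for 4 subunits of the Mcm helicase, for E2f7 and E2f8, whose differences had opposite signs, and for Tyms, the gene with the lowest p. Capitals mark the E2F letters. The pieces lie at chr6:88898781-88899030 (minus strand) for Mcm2, chr8:75109259-75109508 (plus) for Mcm5, chr1:128359706-128359955 (minus) for Mcm6, chr5:138171267-138171516 (minus) for Mcm7, chr10:110745189-110745438 (plus) for E2f7, chr7:48881597-48881846 (minus) for E2f8 and chr5:30073626-30073875 (minus) for Tyms, all outside annotated exons. Mcm7 has another RefSeq start further upstream, and the piece shown lies before the inner start, within the gene. For Mcm3 only the 30 bases from 19 to 48 after the start are given, at chr1:20820264-20820293 (minus), because its 3 matches lie there, of which the last 2 overlap.
Mcm2: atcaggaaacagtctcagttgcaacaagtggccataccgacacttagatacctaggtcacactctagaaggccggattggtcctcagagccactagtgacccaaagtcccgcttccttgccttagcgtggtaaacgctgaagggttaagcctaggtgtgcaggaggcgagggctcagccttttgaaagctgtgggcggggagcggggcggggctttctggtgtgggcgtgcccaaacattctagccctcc
Mcm5: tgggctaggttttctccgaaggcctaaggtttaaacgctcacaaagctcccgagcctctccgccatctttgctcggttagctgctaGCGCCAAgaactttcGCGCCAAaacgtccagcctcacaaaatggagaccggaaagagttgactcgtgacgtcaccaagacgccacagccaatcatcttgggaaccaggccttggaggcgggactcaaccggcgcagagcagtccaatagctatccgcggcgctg
Mcm6: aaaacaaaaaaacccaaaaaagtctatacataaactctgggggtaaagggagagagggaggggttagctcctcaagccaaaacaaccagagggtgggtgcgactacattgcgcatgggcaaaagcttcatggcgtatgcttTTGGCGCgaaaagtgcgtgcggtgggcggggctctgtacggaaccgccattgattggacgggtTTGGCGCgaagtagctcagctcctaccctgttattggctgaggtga
Mcm7: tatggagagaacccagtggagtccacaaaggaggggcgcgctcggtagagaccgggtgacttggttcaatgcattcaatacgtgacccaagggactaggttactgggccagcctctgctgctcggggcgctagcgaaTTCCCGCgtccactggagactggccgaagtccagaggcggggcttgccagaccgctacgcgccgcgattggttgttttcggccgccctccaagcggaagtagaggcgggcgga
E2f7: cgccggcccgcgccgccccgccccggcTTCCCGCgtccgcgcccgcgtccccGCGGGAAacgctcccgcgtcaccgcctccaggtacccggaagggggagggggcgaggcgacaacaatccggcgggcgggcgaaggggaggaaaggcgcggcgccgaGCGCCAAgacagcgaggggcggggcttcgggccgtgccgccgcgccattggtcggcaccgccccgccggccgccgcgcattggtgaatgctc
E2f8: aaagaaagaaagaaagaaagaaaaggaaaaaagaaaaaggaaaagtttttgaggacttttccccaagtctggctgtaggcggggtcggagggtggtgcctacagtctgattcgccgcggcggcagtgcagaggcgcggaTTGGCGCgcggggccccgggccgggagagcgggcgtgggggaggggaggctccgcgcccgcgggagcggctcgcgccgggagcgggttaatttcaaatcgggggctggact
Tyms: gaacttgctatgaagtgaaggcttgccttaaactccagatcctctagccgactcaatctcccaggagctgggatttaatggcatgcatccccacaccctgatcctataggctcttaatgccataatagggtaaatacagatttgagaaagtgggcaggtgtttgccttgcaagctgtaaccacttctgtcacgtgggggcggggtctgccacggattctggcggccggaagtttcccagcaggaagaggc
Mcm3: GCGGGAAaacttgggaagttTTGGCGCCAA
E2f7 held 3 matches, Mcm5 and Mcm6 held 2 each and Mcm7 and E2f8 held 1, while the Mcm2 and Tyms pieces held none. The window of the outer Mcm7 start, which is not printed, held 2. The lower values described next were found with and without these letters: the 29 genes with a match in a window had a median log2 fold change of -0.23, with 27 of them lower in p16 samples, and the 19 without had a median of -0.18, with 17 lower. The 8 genes with no window had a median of -0.19. A window without these letters does not show the lack of an E2F site. Some windows also lie within the gene, such as the only window of E2f1, which held no match.

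Across the 56 genes, expression was slightly lower in p16 than in Control samples, and no single gene passed the test after adjustment. The mean log2 value was lower in p16 samples for 52 genes (92.9%, against 50.4% of all genes tested) and higher for 4, Orc1, E2f7, Pold2 and Rrm1. All 56 genes were measured in the same samples, so these signs are not independent observations, and the count is a description without a test. The median log2 fold change was -0.20, against a median of -0.0027 over the 12782 genes tested, and the differences ran from -0.69 for Clspn to 0.26 for Orc1. Clspn, Rrm2, Hells, Pcna and Tyms lay at the low end, and their differences were all under 1 in size on the log2 scale. These fold changes were fitted with limma on log2(normalized value + 1), a scale that understates the change of genes with low values.

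By limma with Benjamini-Hochberg adjustment over all genes tested, 0 of the 56 genes were called lower, where 2.61% of all genes were, and 0 were called higher, where 1.24% were. With edgeR and with DESeq2 on the recovered reads the count was 0 in both directions as well, against 2.79% and 2.85% of all genes lower and 1.5% and 1.52% higher. At an unadjusted p under 0.05, limma gave 11 genes lower (19.6%, against 8.93% of all genes) and 0 higher (against 7.02%). edgeR gave 12 lower (21.4%, against 9.0%) and 0 higher (against 7.31%), and DESeq2 gave 8 lower (14.3%, against 6.21%) and 0 higher (against 4.57%). The 11 genes were Tyms, Mcm3, Rrm2, Pcna, Hells, Lig1, Clspn, Dut, Rpa2, E2f2 and Gins1.

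The 4 p16 values lay wholly below the 4 Control values for 5 genes, Tyms, Pcna, E2f2, Gins1 and Rfc5 (8.93%, against 5.63% of all genes tested), and wholly above for 0 (against 4.19%). The data limit how large a loss could have been missed. The 95% interval of the log2 fold change lay above -1, which stands for a loss to 50% of the level, for 51 of the 56 genes (91.1%, against 84.6% of all genes tested). For the same 51 genes it lay between -1 and 1 (against 74.7%). The exceptions were Mcm10, Clspn, Brca2, Rrm2 and E2f8.

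**Figure D1:**
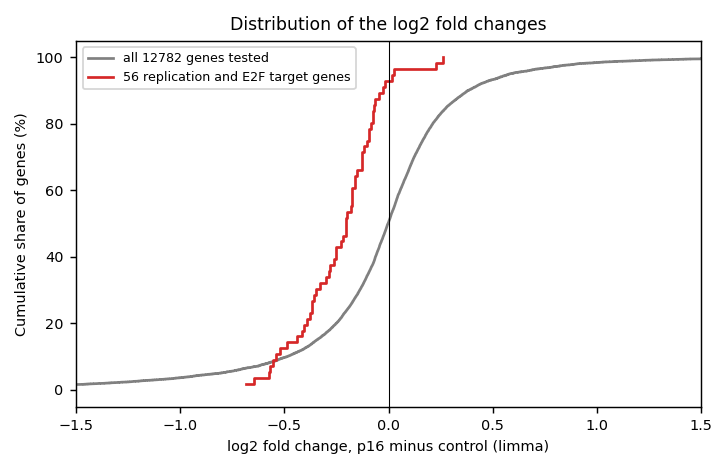
Cumulative share of genes (y axis, percent) against the log2 fold change of p16 minus Control (x axis), for the 56 replication and E2F target genes and for all 12782 genes tested. The step curve of the 56 genes crosses zero after 52 of them and has its median at -0.20, while all genes are centred near zero and reach further on both sides.

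**Figure D2:**
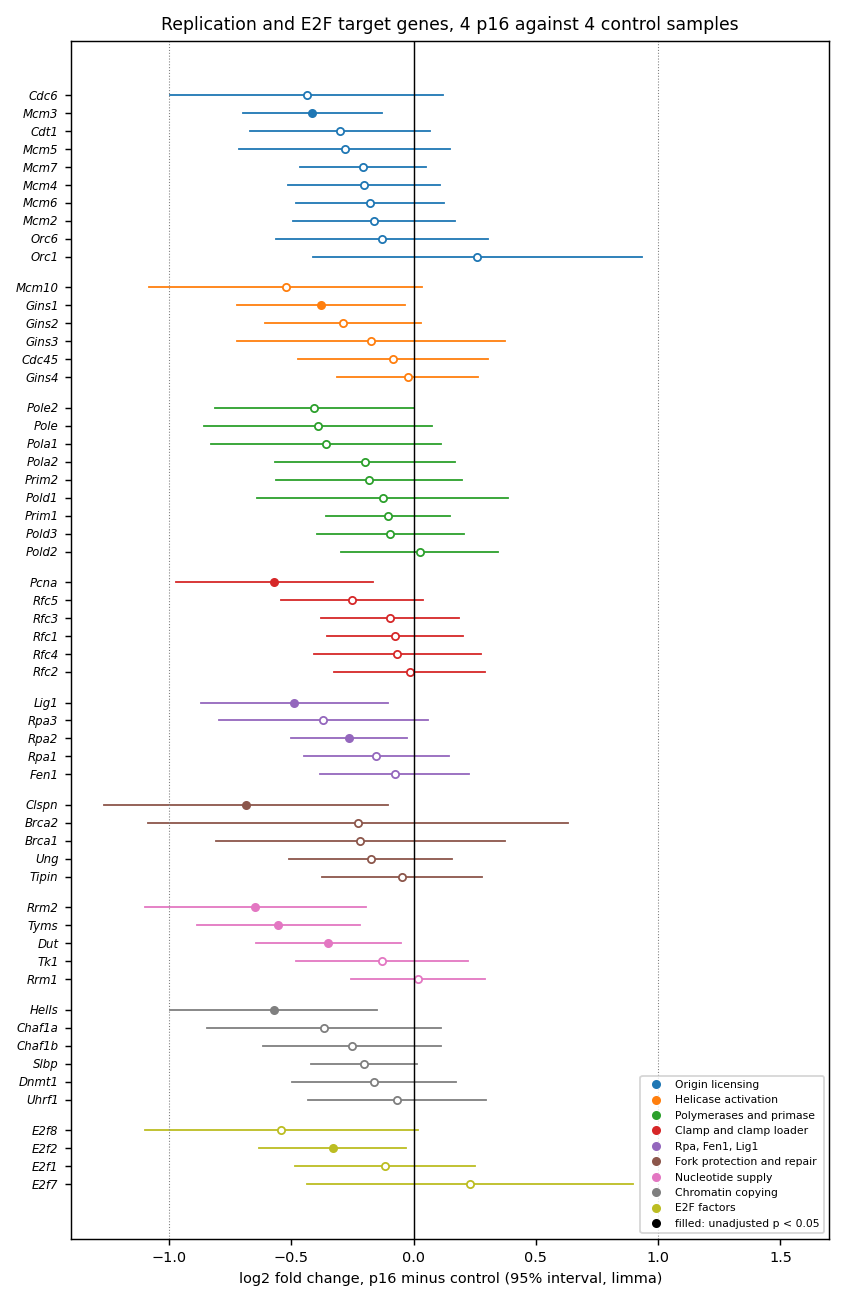
Log2 fold change of each gene (point) with its 95% interval (line) from limma, 4 p16 against 4 Control samples, ordered within each role. Filled points are the 11 genes with an unadjusted p under 0.05, and dotted lines mark -1 and 1. Most points lie between -0.5 and zero, and most intervals include zero.

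Part of the shift came with particular libraries. Summed over the 56 genes, the normalized value was 5760.4, 6001.5, 5689.6 and 7264.9 in the Control samples and 4765, 5542, 5017.5 and 5917.3 in the p16 samples, here and below in the order of replicates 1 to 4. Control replicate 4 stood above the other 7 samples, p16 replicate 4 lay within the Control range, and the other 3 p16 samples lay below every Control. The mean was 6179 ± 736 (SD, n = 4) in Control and 5310 ± 518 (SD, n = 4) in p16 samples, a difference of -14.1%, and without Control replicate 4 the difference was -8.71%.

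Control replicate 4, which also had the fewest reads, had the highest of all 8 values for 36 of the 56 genes. The library labelled p16 replicate 1, which had the fewest transgene reads of its group, had the lowest value for 24 genes, p16 replicate 3 for 14, p16 replicate 4 for 9 and p16 replicate 2 for 0. Values below every Control were found for 40 genes in the library labelled p16 replicate 1, 34 in p16 replicate 3, 18 in p16 replicate 4 and 16 in p16 replicate 2. The same counts were not made over all genes tested, so they cannot be read as particular to the 56 genes. The part of read depth and of transgene level in these differences was not tested.

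When Control replicate 4 was left out, 45 of the 56 genes were lower, with a median of -0.12, and 5 were lower at an unadjusted p under 0.05 (8.93%, against 8.24% of all genes in the same fit), so that the share was near that of all genes. When the library labelled p16 replicate 1 was left out, 46 were lower and 9 were past that threshold (16.1%, against 7.37%). With both left out, a choice made after the data were seen, 39 were lower, the median was -0.07 and 3 were past it (5.36%, against 6.85%). Without p16 replicate 3 the number was 6 (10.7%, against 8.43%). Without p16 replicate 4 it was 16 (28.6%, against 8.78%), with a median of -0.26.

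**Figure D3:**
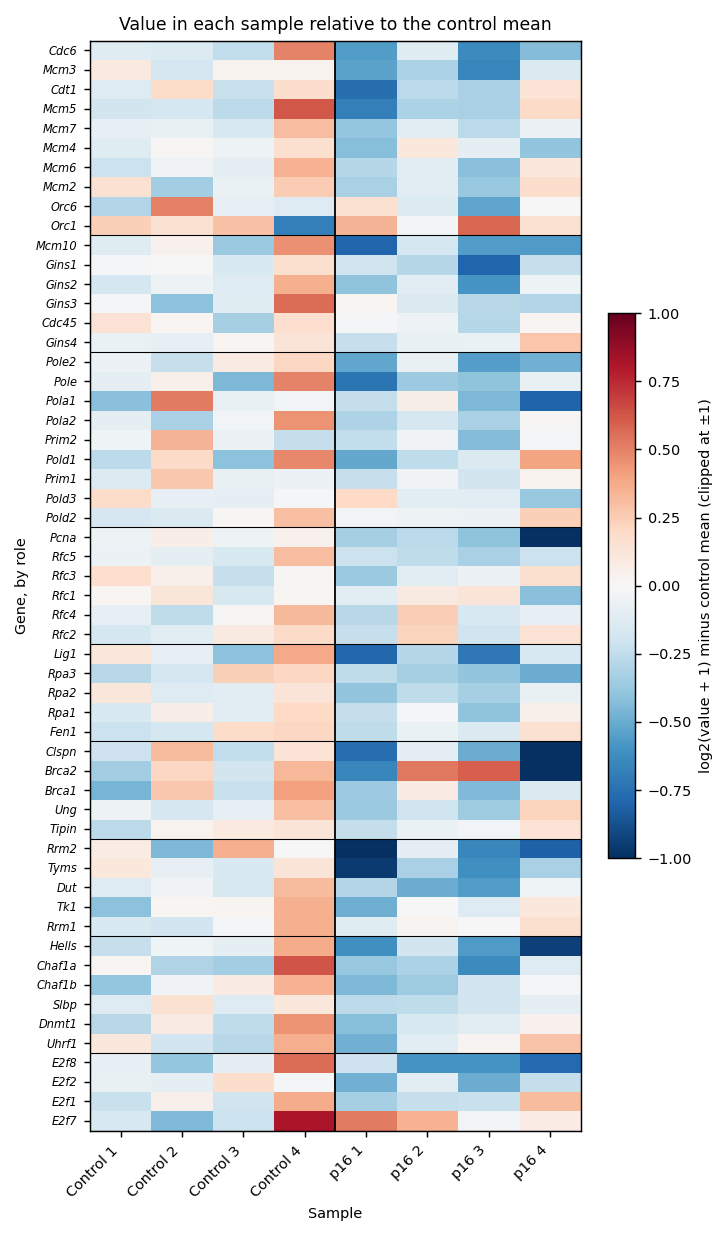
Value of each gene (rows, by role) in each of the 8 samples (columns) as log2(normalized value + 1) minus the Control mean, from blue (lower) to red (higher), with the colour scale ending at -1 and 1. Control replicate 4 is red for most genes, the libraries labelled p16 replicates 1 and 3 are blue for most (Rrm2 in the first of them past -1), and p16 replicate 4 holds both blue cells at the end of the scale (Pcna, Clspn and Brca2) and red ones.

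Origin licensing places an inactive Mcm2 to Mcm7 helicase on DNA, through the origin recognition complex (Orc1 and Orc6 are subunits) and the loading factors Cdc6 and Cdt1. Of these 10 genes, 9 were lower in p16 samples, 1 of them at an unadjusted p under 0.05, and the median log2 fold change was -0.20. Here and for the roles that follow, the share of all genes lower at that threshold was 8.93%, and with 4 to 10 genes in a role the counts are small. The 6 Mcm subunits were all lower, and their summed value was 1113.4, 1069, 1076.6 and 1472.9 in Control and 865.9, 1048.7, 915.1 and 1190.6 in p16 samples, a mean difference of -15.04%. The sums overlapped, since p16 replicate 4 exceeded 3 of the Control samples, and without Control replicate 4 it was -7.48%.

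Mcm3 (chr1:20802968-20820312, minus strand), a helicase subunit, had values of 148.4, 123.2, 142.0 and 142.1 in Control and 95.1, 110.9, 87.8 and 125.0 in p16 samples. Only p16 replicate 4 reached into the Control range, above Control replicate 2. The log2 fold change was -0.41 (SE 0.13, limma adjusted p = 0.114). Without p16 replicate 4 it was -0.50, and its adjusted p was 0.0379.

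Mcm7 (chr5:138164583-138172422, minus strand), whose protein the study stained in tissue, had values of 284.1, 284.9, 269.8 and 371.3 in Control and 229.5, 277.2, 249.2 and 287.8 in p16 samples. The groups overlapped, Control replicate 4 was far above the others, and the log2 fold change was -0.21, with a 95% interval from -0.46 to 0.05 (limma, adjusted p = 0.442). Without Control replicate 4 it was -0.10. Part of Mcm7 lies opposite Cops6 and Ap4m1 on the other strand, and the sources used here do not say whether reads were counted by strand.

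Mcm2 had values of 193.6, 136.0, 166.2 and 207.8 in Control and 138.3, 160.1, 133.0 and 196.5 in p16 samples. The groups overlapped almost wholly, and the log2 fold change was -0.16 (limma, adjusted p = 0.688), or -0.076 without Control replicate 4. Mcm4, Mcm5 and Mcm6 had mean differences of -12.4%, -18.7% and -11.8%, and Cdc6 and Cdt1 of -28.6% and -17.7%. Orc6 was at 58.1 ± 15.6 (SD, n = 4) in Control and 52.6 ± 10.3 (SD, n = 4) in p16 samples. Orc1, the subunit that is lost from chromatin after origins fire, was the exception, with 8.3 ± 2.50 in Control and 9.9 ± 1.98 in p16 samples, where the lowest value, 4.6, was in Control replicate 4.

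Firing of the origin needs Cdc45 and the GINS complex (Gins1 to Gins4), which join the Mcm ring as the active helicase, and Mcm10. All 6 genes were lower, with a median log2 fold change of -0.23, and 1 of them had an unadjusted p under 0.05. Gins1 had values of 78.6, 79.6, 71.0 and 88.6 in Control and 68.8, 64.8, 45.2 and 67.4 in p16 samples. The groups did not overlap, the gap between them being small, and p16 replicate 3 was well below its group. The log2 fold change was -0.38 (SE 0.16, limma adjusted p = 0.258), and the exact permutation test gave p = 0.0286, the smallest that 4 samples against 4 allow. Without p16 replicate 3 the Gins1 value was -0.24.

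The other subunits of the complex ran from -0.02 for Gins4 to -0.29 for Gins2 on the log2 scale, with Gins3 at -0.17, and their intervals all included zero. The 4 proteins work as a single unit, and whether the changes of their genes differed from each other was not tested. Mcm10 had a larger difference of -0.52, with an interval from -1.08 to 0.03, on values of 19.2 ± 5.02 in Control and 12.9 ± 2.52 (SD, n = 4) in p16 samples. Cdc45 differed by -6.38%.

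The polymerases extend the new strands. Of their 9 genes, 8 were lower in p16 samples, 0 at an unadjusted p under 0.05, and the median was -0.18. The subunits of polymerase epsilon, which copies the leading strand, had the lowest means relative to Control: Pole was at 49.8 ± 14.1 and 37.2 ± 7.04, and Pole2 at 39.7 ± 5.32 and 29.8 ± 5.15 (SD, n = 4). Pole2 was just outside the unadjusted threshold (limma, unadjusted p = 0.0511, adjusted p = 0.316). Of polymerase delta, on the lagging strand, Pold1 differed by -8.90%, Pold2 by 1.25% and Pold3 by -5.78%. Whether the polymerases differed from each other was not tested. Polymerase alpha and primase, which lay down the primers, differed by -22.7% for Pola1, -14.3% for Pola2, -7.25% for Prim1 and -12.4% for Prim2.

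Pcna (chr2:132249162-132253314, minus strand) encodes the sliding clamp that tethers the polymerases, and is widely used as a marker of proliferation. Its values were 141.7, 154.0, 142.0 and 151.3 in Control and 116.7, 122.6, 110.8 and 60.0 in p16 samples. The Control values were close together, all p16 values were below them, and p16 replicate 4 was far below the rest. Pcna had a log2 fold change of -0.57 (SE 0.19, limma adjusted p = 0.128), an exact permutation p of 0.0286 and a mean difference of -30.4%. Without p16 replicate 4 the log2 fold change was -0.33. The annotation holds named pseudogenes of Pcna and of Tyms, with which reads could be shared.

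The clamp is opened and loaded by replication factor C, which has 5 subunits. Their summed value was 626.1, 617.4, 578 and 686 in Control and 529.4, 640.2, 592.3 and 591.9 in p16 samples, a mean difference of -6.13%. It was -3.08% without Control replicate 4 and -2.99% without the library labelled p16 replicate 1. Rfc5 alone had groups that did not overlap, at 91.2, 88.6, 85.2 and 117.6 in Control and 81.6, 79.6, 75.4 and 81.4 in p16 samples. The 4 p16 values of Rfc5 lay close together, directly under the Control range, and its log2 fold change was -0.25 (SE 0.14, limma adjusted p = 0.393, exact permutation p = 0.0286), or -0.15 without Control replicate 4. Rfc1, Rfc2, Rfc3 and Rfc4 had log2 fold changes between -0.095 and -0.015.

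Single-stranded DNA at the fork is covered by the RPA complex (Rpa1 to Rpa3), and the fragments of the lagging strand are trimmed by Fen1 and joined by Lig1. All 5 genes were lower, with a median of -0.26 and 2 at an unadjusted p under 0.05. Lig1 had values of 173.6, 151.4, 120.3 and 209.3 in Control and 92.7, 131.2, 97.5 and 143.1 in p16 samples. The groups overlapped, and the Control values spread widely around a log2 fold change of -0.49 (SE 0.18, limma adjusted p = 0.179).

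Rpa2 had values of 249.3, 210.5, 213.8 and 252.1 in Control and 175.1, 193.6, 183.5 and 218.7 in p16 samples. Only p16 replicate 4 was inside the Control range, and the log2 fold change was -0.26 (SE 0.11, limma adjusted p = 0.254). Rpa1 and Rpa3 differed by -9.87% and -24.1%, and Fen1 by -5.58%.

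Among the genes that protect and repair the fork, Clspn, an adaptor of the checkpoint kinase Chk1, had the lowest log2 fold change of all 56 genes. Its values were 27.4, 39.8, 26.7 and 35.1 in Control and 18.4, 29.7, 22.2 and 11.5 in p16 samples. p16 replicate 4 had the lowest value, and p16 replicate 2 overlapped the Control group. The log2 fold change was -0.69 (SE 0.27, limma adjusted p = 0.216), and its interval, from -1.27 to -0.11, was among the widest. Without p16 replicate 4 the Clspn value was -0.45. Tipin, a partner of Timeless in the fork protection complex, differed by -3.32%, and Ung, which removes uracil from DNA, by -11.0%.

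The recombination genes Brca1 and Brca2 were expressed at low values. Brca2 had 11.1, 16.7, 12.5 and 18.3 in Control and 8.8, 21.1, 22.2 and 4.9 in p16 samples, so that p16 samples held both the highest and the lowest values. Its log2 fold change of -0.23 had an interval from -1.09 to 0.63. Brca1 was at 15.2 ± 4.48 in Control and 12.7 ± 2.26 (SD, n = 4) in p16 samples.

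Nucleotide supply was the role with the lowest median, -0.35, and 3 of its 5 genes had an unadjusted p under 0.05. Tyms (chr5:30058202-30073617, minus strand), thymidylate synthase, had values of 123.1, 107.8, 102.7 and 125.3 in Control and 58.4, 91.3, 74.5 and 91.3 in p16 samples. The groups did not overlap, and the library labelled p16 replicate 1 was the lowest. The mean was 115 ± 11.2 (SD, n = 4) in Control and 78.9 ± 15.8 (SD, n = 4) in p16 samples, a log2 fold change of -0.55 (SE 0.16), with the lowest adjusted p of the 56 genes by limma (0.0708). Its exact permutation p was 0.0286. Without p16 replicate 4 the log2 fold change of Tyms was -0.63 and its limma adjusted p 0.0351.

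Rrm2 (chr12:24708241-24714146, plus strand) encodes the small subunit of ribonucleotide reductase, which is made in S phase. Its values were 96.4, 66.7, 117.8 and 91.7 in Control and 44.0, 85.9, 57.6 and 51.8 in p16 samples. The p16 values lay below the Control group except in p16 replicate 2, and the log2 fold change was -0.65 (SE 0.21, limma adjusted p = 0.123). Without p16 replicate 2 it was -0.83, with an adjusted p of 0.0304. The large subunit Rrm1, by contrast, was at 200.3 ± 36.9 in Control and 201 ± 16.3 (SD, n = 4) in p16 samples, with an interval from -0.26 to 0.29 on the log2 scale. Whether the subunits differed from each other was not tested.

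Dut, which keeps uracil out of DNA by splitting dUTP, had values of 202.5, 216.9, 198.8 and 276.5 in Control and 180.7, 156.9, 149.8 and 215.4 in p16 samples. p16 replicate 4 overlapped the Control group, and the log2 fold change was -0.35 (SE 0.14, limma adjusted p = 0.223). Tk1, thymidine kinase of the salvage route, was at 165 ± 35.2 in Control and 149.8 ± 25.5 (SD, n = 4) in p16 samples.

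**Figure D4:**
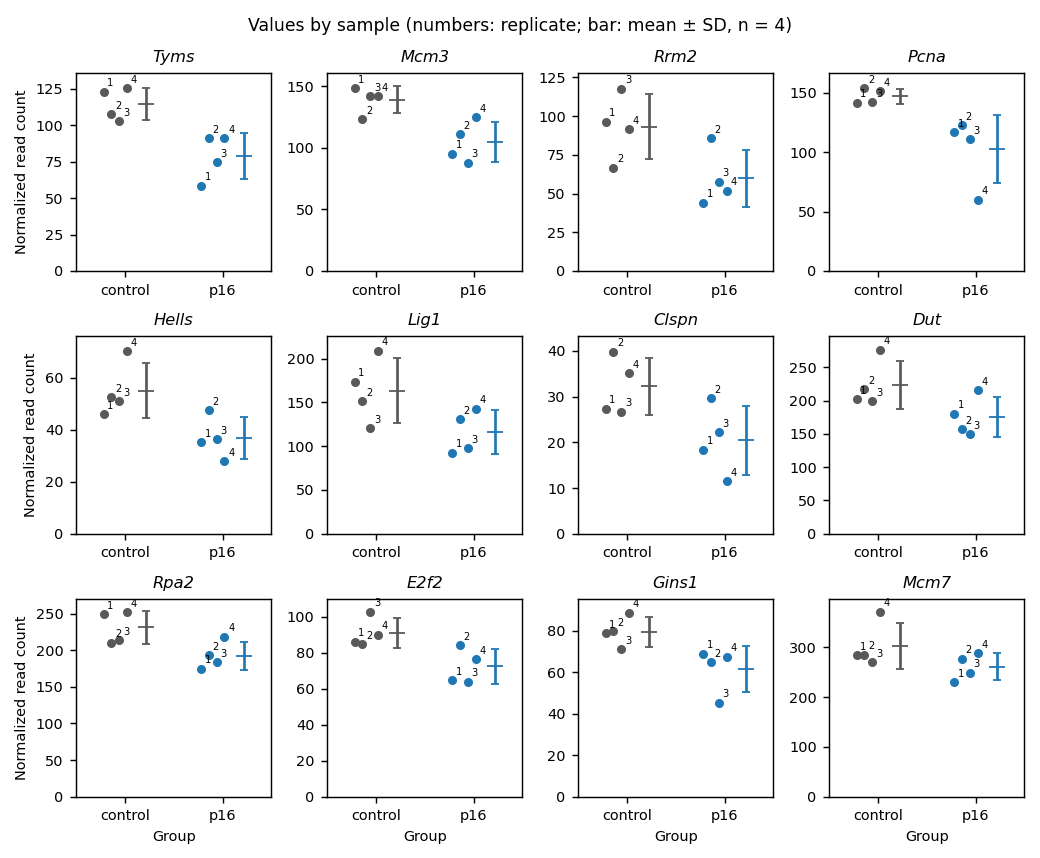
Normalized read count (y axis, from zero) of 12 genes in Control (grey) and p16 (blue) samples. Each point is a sample with its replicate number, and the bar beside it is the mean ± SD (n = 4). The groups do not overlap for Tyms, Pcna, E2f2 and Gins1, and p16 replicate 4 is the lowest point for Pcna, Hells and Clspn but the highest of its group for Mcm3, Lig1 and Mcm7.

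Newly copied DNA is packed and methylated by chromatin factors, and all 6 of these genes were lower, with a median of -0.23 and 1 at an unadjusted p under 0.05. Hells, a chromatin remodeller needed for DNA methylation, had values of 46.0, 52.6, 50.9 and 70.3 in Control and 35.2, 47.6, 36.4 and 28.0 in p16 samples. Only p16 replicate 2 overlapped the Control group, and the log2 fold change was -0.57 (SE 0.20, limma adjusted p = 0.148). The histone chaperone subunits Chaf1a and Chaf1b differed by -25.3% and -17.1%, and Slbp, which binds histone mRNA, by -13.4%. The maintenance methyltransferase Dnmt1 and its recruiter Uhrf1 differed by -12.1% and -4.40%.

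The E2F factors themselves gave a mixed picture. E2f1 and E2f2 are activators, whereas E2f7 and E2f8 repress the same targets later in S phase and are themselves E2F targets. E2f1 had values of 89.0, 107.8, 90.2 and 134.4 in Control and 82.4, 88.2, 88.7 and 129.9 in p16 samples. The highest values were those of replicate 4 in both groups, and the other p16 samples lay just below the Control range. The log2 fold change of E2f1 was -0.12 (limma, adjusted p = 0.819) and turned to 0.0056 without Control replicate 4.

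E2f2 had values of 86.1, 84.7, 102.7 and 90.1 in Control and 64.8, 84.3, 63.8 and 76.5 in p16 samples. The groups did not overlap, though p16 replicate 2 and Control replicate 2 were separated by only 0.4, less than the value of 1 read, which was 0.742 to 1.53 between libraries. The log2 fold change was -0.33 (SE 0.14, limma adjusted p = 0.256, exact permutation p = 0.0286).

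E2f8 had values of 19.3, 15.4, 19.2 and 30.6 in Control and 17.6, 13.3, 13.3 and 11.5 in p16 samples, a log2 fold change of -0.54 (SE 0.26, limma adjusted p = 0.333), or -0.35 without Control replicate 4. E2f7 had 9.6, 7.7, 9.2 and 19.9 in Control and 16, 14.1, 10.6 and 11.5 in p16 samples, a log2 fold change of 0.23 (SE 0.31, limma adjusted p = 0.800), which ranged from 0.082 without Control replicate 2 to 0.50 without Control replicate 4. Apart from Control replicate 4, the E2f7 values of all p16 samples were above those of Control, and the E2f8 values overlapped in 1 p16 library. Both genes were measured at low values, and E2f7 has the broader interval, from -0.44 to 0.90.

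The genes around this pathway were read from 4 further lists. Of 33 other replication genes, 24 were lower and 9 higher, the median log2 fold change was -0.09, and 1 was called lower (3.03%, against 2.61% of all genes). At an unadjusted p under 0.05, 3 of the list were lower (9.09%, against 8.93%) and 0 higher, so that both shares were near those of all genes. The called gene was Nasp, a histone chaperone, which fell from 279 ± 24.1 (SD, n = 4) to 197 ± 12.7 (SD, n = 4), with values of 313.8, 266.9, 275.6 and 259.7 in Control and 180.7, 211.6, 197.7 and 199.8 in p16 samples. The Nasp groups were well separated, at a log2 fold change of -0.50 (SE 0.10, limma adjusted p = 0.0135).

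Of 15 other E2F targets, 13 were lower, 0 passed the adjusted test, and 4 were lower at an unadjusted p under 0.05 (26.7%, against 8.93%), with 0 higher. Those 4 were the mitotic kinase Cdk1, the S phase cyclin Ccne2, the chromatin ATPase Atad2 and the licensing inhibitor Gmnn, and the median of the list was -0.30. Gmnn was also in the list of other replication genes and is counted in both lists. Of 14 other E2F and RB family genes, 8 were lower and 6 higher, with a median of -0.12. The pocket protein Rbl1 was lower (limma, adjusted p = 0.170) and E2f3 and E2f4 were higher (limma, adjusted p = 0.299 and 0.256), each at an unadjusted p under 0.05. Of 18 genes of mitosis, 17 were lower, with a median of -0.32, 0 passed the adjusted test, and 3 (Top2a, Aurkb and Nusap1) had an unadjusted p under 0.05 (16.7%, against 8.93%). The proliferation marker Mki67 had values of 153.6, 259.2, 200.4 and 207.8 in Control and 120.7, 215.5, 210.1 and 53.4 in p16 samples, so that 2 p16 samples were within the Control range and p16 replicate 4 was the lowest of all (log2 fold change -0.62, limma adjusted p = 0.396).

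**Figure D5:**
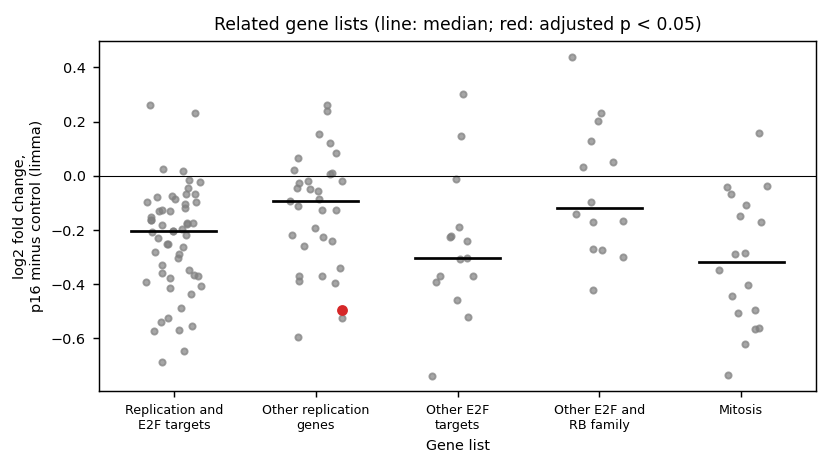
Log2 fold change of p16 minus Control (y axis) for single genes in the 56 replication and E2F target genes and in 4 related lists (x axis), with the median of each list as a line. The medians run from -0.09 for other replication genes to -0.32 for mitosis, and Nasp, in red, is the single gene with an adjusted p under 0.05.

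Some markers of other skin cell types differed between the groups. This may be read as fewer such cells or as less RNA of these genes per cell, which bulk values cannot tell apart. The study itself reported fewer hair follicles and fewer hair follicle stem cells in the skin after prolonged p16 expression. Markers of hair follicle stem cells summed to 2826 to 3608 in Control and 1220 to 2483 in p16 samples, with 5 of 7 called lower (Cd34, Lhx2, Sox9, Nfatc1 and Tcf7l1), where 2.61% of all genes were. Postn of the same list had the opposite sign (0.73 on the log2 scale, limma adjusted p = 0.272). Sebaceous markers summed to 613 to 674 and 123 to 271, with 5 of 6 called lower, and melanocyte markers to 63.4 to 411 and 13.9 to 80.4, with 2 of 4 tested called lower. For the hair matrix, whose cells divide rapidly, the sums were 108 to 286 and 76.4 to 113, and Hoxc13 and Krt35 were called lower among 4 tested. Msx2 had the opposite sign, with all p16 values above all Control values (0.62 on the log2 scale, limma adjusted p = 0.282). Of 7 markers of differentiated keratinocytes, Ivl and Sbsn were called lower and Lor higher, with sums of 6695 to 9130 and 6921 to 10328.

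Markers of the gated-out cells were low, at sums of 9.1 to 18 and 5.4 to 16.4 for T cells, with 0 of 3 tested called, and of 1.3 to 5.2 and 4.7 to 7.2 for endothelial cells, with Cdh5, Kdr and Emcn at 0 in all samples. Langerhans and myeloid markers summed to 132 to 158 and 141 to 189, with 0 of 5 tested called and Lyz2 at 0. Fibroblast markers summed to 10.8 to 27.3 and 42.8 to 221, of which Dcn was called higher and Lum was at 0 in all samples. Of 5 fibroblast markers tested, 3 were higher, 2 of them at an unadjusted p under 0.05. The other 2 were lower, 1 of them at that threshold. The part of these cell types in the lower values of the replication genes was not tested.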

How the data were processed

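mRNA was profiled in 8 samples of sorted GFP+ keratinocytes (4 Control, 4 p16). The authors made 3′ libraries by an adaptation of CEL-Seq2 (CEL-Seq in the labels), used Cutadapt for trimming and TopHat2 for alignment to GRCm38, and the submitters' notes also name HTSeq and DESeq2. The annotation version and the use of molecular identifiers are not given in the sources used here. The deposited signal values are counts divided by a size factor per sample and rounded to 1 decimal, and dividing by the value of 1 read gave whole reads, within 0.05, for 100% of them. The labels word the library protocol of replicate 3 differently in both groups. The other 13 samples were not analysed here.

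Of 22050 entries, the 12782 with a mean of at least 1 entered a limma 3.58.1 fit (trended eBayes, R 4.3.3) on log2(value + 1), with Benjamini-Hochberg adjustment (called at an adjusted p under 0.05) and no replicate term. The design foresaw this test for normalized values. Single genes also had an exact two-sided permutation test. edgeR 4.0.16 (quasi-likelihood, TMM, 10700 genes) and DESeq2 1.42.0 were run on the recovered reads as alternatives, beside a pseudocount of 0.1, other filters, total count scaling, a replicate block and samples left out. Each p-value measures the spread between pools of 3 mice. Scripts were tested on simulated data.

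The genes and lists were chosen with earlier results of these data known. Values in every sample are given for genes with an unadjusted p under 0.05 or non-overlapping groups, and for Mcm2, Mcm7, Pcna and the E2F factors. Brca2, which met none of these rules, is also given in every sample, and Slbp and others named by their means illustrate the remaining members. The markers Flg (7 entries) and Krt85 (0 entries) were not used. Positions are those of GENCODE M21 on GRCm38. Of the 56 genes, 11 overlap a coding gene on the opposite strand, 2 overlap one on the same strand (Cdt1 and Pole2), and strand use in counting is not given in the sources used here.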

Additional observations from a re-analysis of the deposited data

Results flagged for a closer look

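In 8 of the 112 groups of 4 values examined (56 genes in 2 groups), 1 sample lay far from the other 3, with a gap beyond Dixon's 95% critical value for 4 values. Chance alone gives about 1 in 20 such groups. Control replicate 4 was the high sample for Cdc6 (24.4), Mcm5 (343.8), Mcm7 (371.3) and E2f7 (19.9), which is 4 of the 8, and it was the library with the fewest reads, 1760953. The high sample was p16 replicate 4 for Pold2 (82.2) and E2f1 (129.9), and p16 replicate 2 for Pole2 (37.5). The low sample was p16 replicate 3 for Gins1 (45.2). The part of read depth in the 4 high values of Control replicate 4 was not tested.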

How the results depend on the processing

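None of the 56 genes was called higher under any of the 17 alternatives, and none was called lower except when single samples were left out, which gave 0 to 2: Rrm2 (-0.83) without p16 replicate 2, and Tyms (-0.63) and Mcm3 (-0.50) without p16 replicate 4. The number lower at an unadjusted p under 0.05, 11, ranged from 5 to 16 with single samples left out (8.93% to 28.6%, against 7.37% to 9.26% of all genes). It was 6 with replicate 3 of both groups left out (10.7%, against 7.56%). With Control replicate 4 and the library labelled p16 replicate 1 left out (added after the data were seen), it was 3 (5.36%, against 6.85%). It was 8 with total count scaling (14.3%, against 7.52%), a scaling that put the median of all genes at 0.03. Leaving out single samples gave 69 to 196 genes called higher and 177 to 343 called lower over the whole table, against 159 and 334. These counts were 66 and 157 without replicate 3, and 48 and 145 with the added pair left out. Of the 56 genes, 38 kept their sign under all 17 alternatives. Among the genes named by rule, only E2f1 turned, to 0.0056 without Control replicate 4 (range -0.26 to 0.0056 with single samples left out) and 0.077 without the added pair. The causes were not tested.

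Same-numbered samples correlated weakly in their deviations from the group means, at 0.0044 to 0.083, and the other pairs at -0.0997 to 0.058. Whether replicate numbers pair the samples cannot be told from correlations this small. With the replicate block, 0 of the 56 genes were called, and 14 were lower at an unadjusted p under 0.05 (25%, against 9.92% of all genes). The median stayed at -0.20, and 216 genes were called higher and 392 lower over the whole table. Not every sample correlated best with its own number. For genes at low values, such as Orc1, Brca1, Brca2, E2f7 and Mcm10, depth limits what can be seen, and with 4 pools a group no permutation p can be below 0.0286.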
